A study of Mus musculus with 18 samples.

Results

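Complex I of the respiratory chain was followed in the caput epididymis through its nuclear genes, taken as every entry of the count tables whose symbol begins with Nduf and does not end in -ps. The rule found 51 genes among 53819 entries, of which 43 were called subunits and 8, the Ndufaf genes, assembly factors. Of the 51, 47 passed the low-count filter (39 subunits and all 8 assembly factors). The tissue came from C57BL/6J mice in 6 groups of 3 libraries: control, 6% EtOH (ethanol) and 10% EtOH, each sampled at 10 weeks of treatment and again in a set labelled cessation, which the series title puts at a month. How the ethanol was given, how old the mice were and whether animals were pooled is not given in the sources used here. No label says that libraries came from separate animals, so p-values measure the spread between these libraries, which may be technical.

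Complex I takes electrons from NADH, passes them along iron-sulfur clusters to ubiquinone and pumps protons across the inner mitochondrial membrane. Its N module binds and oxidises NADH, its Q module reduces ubiquinone, and its proximal and distal membrane arms carry the proton channels, whose cores are encoded by mitochondrial DNA. Nuclear genes supply the other subunits, and assembly factors help to build the complex without remaining in it. In the epididymis the duct epithelium acidifies and modifies the fluid around maturing sperm, which is work that draws on ATP.

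The 18 libraries held 10.7 to 21.1 M (10 to the power of 6) assigned counts, with 15.6 to 21.1 M at 10 weeks and 10.7 to 17.2 M after cessation. The 51 genes took 0.231% to 0.277% of a library. All 8 markers of principal cells and the caput were detected in every group, with summed levels from 33080 to 111620 CPM (counts per M, scaled by TMM). Control cessation replicate 3 and 6% EtOH cessation replicate 1 stood apart, with the lowest principal cell markers (a median centred log2 level of -1.03 and -1.14) and the highest smooth muscle markers (1.86 and 1.62). The title of 6% EtOH cessation replicate 1 carries another sample identifier than its table does, and its group was taken from the title.

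Per kilobase of transcript, the subunits were spread over a wide range and nearly all stood above the assembly factors. Ndufa4, first described in complex I and now counted with complex IV, had the highest mean level at 239 CPM per kilobase over 18 libraries, with a range of 163 to 336. Ndufa1, a small subunit of the proximal membrane arm, followed at 237 (165 to 287), and Ndufa7 of the N module at 185 (153 to 214). The range of Ndufa4 covered that of Ndufa1, so the order of these neighbours did not exceed the spread between libraries. At the low end stood Ndufs1, the largest core subunit of the N module, at 21.1 CPM per kilobase (18.4 to 25.1), and Ndufab1, the mitochondrial acyl carrier protein, at 21.0 (16.4 to 28.0). Ndufa4l2, a paralog of Ndufa4 known for its induction in low oxygen, was far lower at 0.642 (0.124 to 2.41).

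The nuclear core subunits, which carry the flavin and the iron-sulfur clusters or line the quinone site, did not have equal transcript levels. Ndufv2, an iron-sulfur subunit of the N module, stood at 86.6 CPM per kilobase (54.9 to 110). Ndufs8, another iron-sulfur subunit, was at 59.3 (50.2 to 74.4), Ndufs3 at 54.1, Ndufv1, which binds NADH and the flavin, at 54.0, and Ndufs7 at 49.99. The lowest library of Ndufs7 was at 37.8, above the highest library of Ndufs1 at 25.1. Lengths came from an annotation of an earlier build, and a gene whose transcripts differ in length, such as Ndufab1 (1416 to 3479 bases), would shift with the transcript chosen. This holds for the first place of Ndufa4 too, whose transcripts had 452 to 610 bases, of which 452 was used.

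Among the assembly factors the highest levels per kilobase were those of Ndufaf2 (16.04 CPM per kilobase, 11.8 to 20.1), a paralog of the subunit Ndufa12, Ndufaf3 (13.1, 9.55 to 16.8), which acts on the Q module, and Ndufaf8 (12.8, 9.88 to 20.4), a partner of Ndufaf5. Their ranges overlapped. Ndufaf7, a methyltransferase, followed at 11.1 and Ndufaf1, which works on the membrane arm, at 8.77. The lowest were Ndufaf6 at 2.80 (1.33 to 4.66), Ndufaf4, which works with Ndufaf3, at 3.13 (2.11 to 5.11) and Ndufaf5, which hydroxylates Ndufs7, at 6.60 (4.64 to 9.22). Ndufab1, the lowest of the tested subunits after Ndufa4l2, had a mean above that of Ndufaf2, though their ranges met.

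**Figure D1:**
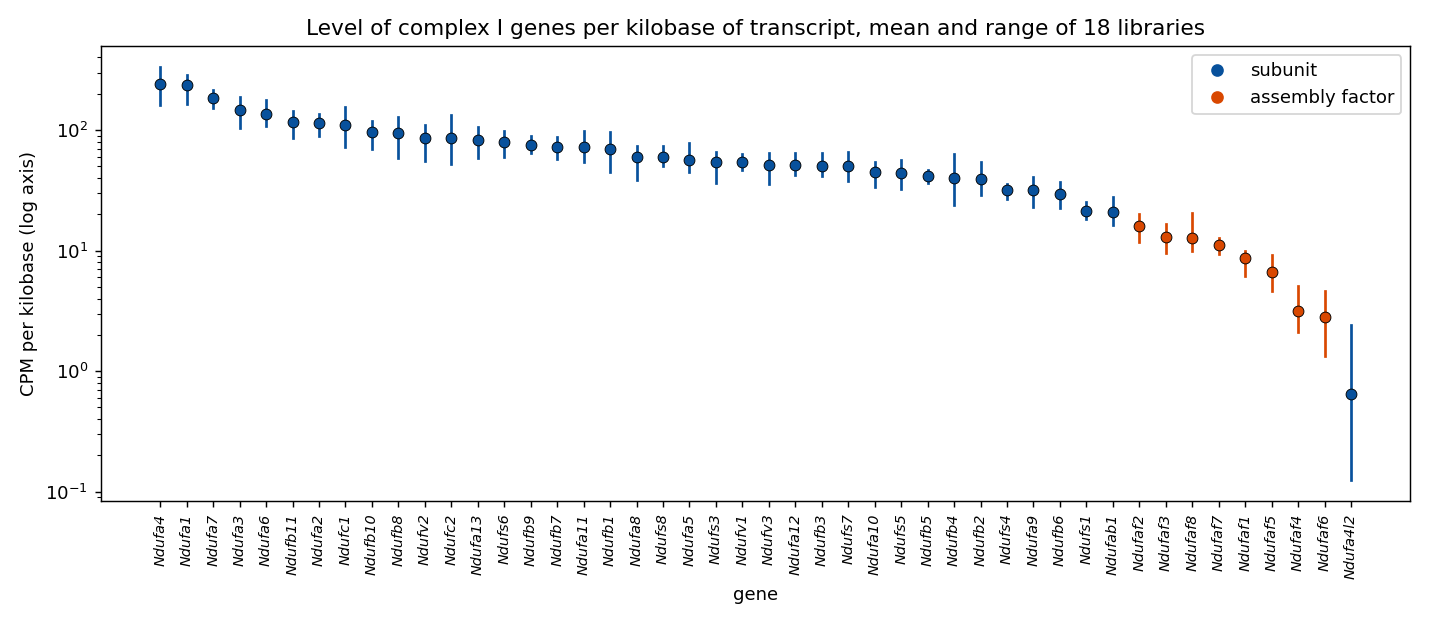
Level of the tested genes reported by name in CPM per kilobase of transcript on a log axis, with the mean (point) and the range (line) of 18 libraries; subunits are blue and assembly factors orange. With the lengths used, Ndufa4 and Ndufa1 lead, the assembly factors lie between 2.80 and 16.04, and Ndufa4l2 is lowest at 0.642.

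Of the members that did not pass the filter, Ndufb4c, a copy of Ndufb4, had 1 to 8 counts in a library, Ndufb11b 2 to 8, Ndufs6b 0 to 6 and Ndufa11b 0 to 2. In 1 library 3 counts, the limit that a count of 0 allows, corresponded to 0.151 to 0.283 CPM, so levels of these copies could not be compared between groups at this depth. Since most low counts were even numbers, a fragment may have been counted more than once, and the true limit may then be higher. Ndufb4 itself has near-identical copies, so its counts are uncertain where reads match more than 1 of them.

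At 10 weeks the subunits lay higher in 10% EtOH than in control on balance, with the largest differences in a few accessory subunits of the membrane arms, but no gene passed the adjusted threshold. Ndufb1, an accessory subunit of the distal membrane arm, stood at 47.2, 43.6 and 39.3 CPM in the control libraries, 58.9, 62.2 and 58.5 in 6% EtOH and 67.5, 71.2 and 69.1 in 10% EtOH. The 3 groups did not overlap and followed the order of the doses. Its log2 fold change in 10% EtOH was 0.68 ± 0.15 (SE, n = 3 libraries a group), with an unadjusted p of 0.00037 and an adjusted p of 0.299 in edgeR's quasi-likelihood test with Benjamini-Hochberg adjustment. In bulk RNA, a different share of cells of a type and a different amount of RNA per cell cannot be told apart.

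Ndufb4, also of the distal arm, had 29.3, 30.5 and 23.1 CPM in control, 34.1, 39.3 and 39.6 in 6% EtOH and 41.7, 45.7 and 61.8 in 10% EtOH. Here too the 3 groups stood in the order of the doses without overlap, and replicate 3 of 10% EtOH was the highest library. The log2 fold change in 10% EtOH was 0.85 ± 0.23 (adjusted p = 0.299, edgeR). Ndufc1, a short subunit of the proximal arm, had 26.5, 27.5 and 27.5 CPM in control, 33.1, 38.7 and 36.0 in 6% EtOH and 35.2, 39.9 and 49.0 in 10% EtOH. Control lay below both EtOH groups, which overlapped each other, and the log2 fold change in 10% EtOH was 0.61 ± 0.20 (adjusted p = 0.299, edgeR).

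Ndufb8 of the distal arm had 48.5, 52.5 and 40.2 CPM in control, 60.4, 67.2 and 70.2 in 6% EtOH and 66.7, 81.5 and 69.6 in 10% EtOH, a log2 fold change of 0.62 ± 0.23 in 10% EtOH (adjusted p = 0.299, edgeR). Ndufa4 had 87.3, 93.2 and 84.0 CPM in control, 99.1, 111 and 115 in 6% EtOH and 109, 128 and 143 in 10% EtOH, a log2 fold change of 0.52 ± 0.20 (adjusted p = 0.302, edgeR). Ndufv2, the core subunit among the 6 with the smallest p, had 129, 126 and 125 CPM in control, 149, 164 and 165 in 6% EtOH and 162, 170 and 187 in 10% EtOH, a log2 fold change of 0.45 ± 0.18 (adjusted p = 0.310, edgeR). In each of these genes the control libraries lay below all EtOH libraries of 10 weeks. With trends of transcript length and GC content removed, the values of Ndufa4 and Ndufv2 fell to 0.24 and 0.17 and those of Ndufb1, Ndufb4 and Ndufb8 were 0.78, 0.91 and 0.68.

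**Figure D2:**
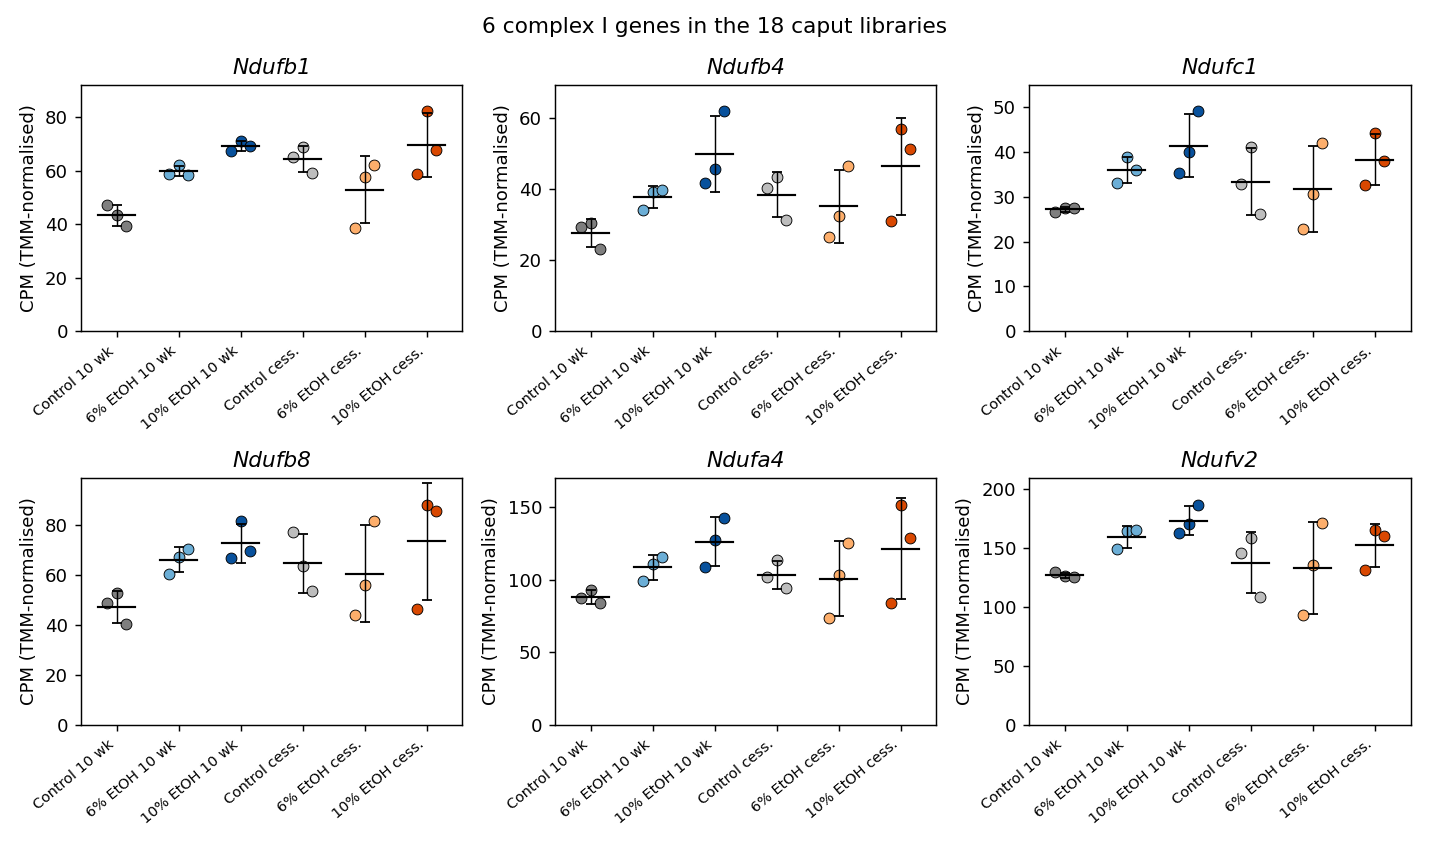
CPM (TMM-normalised) of Ndufb1, Ndufb4, Ndufc1, Ndufb8, Ndufa4 and Ndufv2 in each of the 18 libraries (points, 3 a group), with the mean (bar) and SD (error bar); each axis starts at 0. At 10 weeks the control libraries lie below both EtOH groups in all 6 panels, as with Ndufb1 (39.3 to 47.2 against 58.5 to 71.2 CPM), and after cessation the groups overlap.

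The promoters of the 4 membrane arm genes among these 6 are shown. Over the 18 libraries the pairwise r was 0.767 to 0.947 among the 6 genes and -0.609 to 0.929 (median 0.524) among the other subunits. The 6 were chosen by p in these same libraries, which can raise the r among them. Each window runs from 250 bases before to 50 bases after the start of the gene in RefSeq, build GRCm38.p6, and is written 5′ to 3′ on the strand of the gene. Capitals mark matches, on either strand, to 6 motifs searched: the NRF1 core CGCATGCG, ETS CCGGAAG, YY1 AAGATGG, Sp1 GGGCGG, CREB TGACGTCA and the TATA box TATAAA.
Ndufb1 promoter, chr12:101975689-101975988, minus strand: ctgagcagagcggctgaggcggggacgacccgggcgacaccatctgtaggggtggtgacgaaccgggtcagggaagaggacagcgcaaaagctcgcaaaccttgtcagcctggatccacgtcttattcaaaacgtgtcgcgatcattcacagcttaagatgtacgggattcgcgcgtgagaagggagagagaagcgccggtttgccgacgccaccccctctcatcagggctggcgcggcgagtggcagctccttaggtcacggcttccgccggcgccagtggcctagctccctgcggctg
Ndufb4 promoter, chr16:37654319-37654618, minus strand: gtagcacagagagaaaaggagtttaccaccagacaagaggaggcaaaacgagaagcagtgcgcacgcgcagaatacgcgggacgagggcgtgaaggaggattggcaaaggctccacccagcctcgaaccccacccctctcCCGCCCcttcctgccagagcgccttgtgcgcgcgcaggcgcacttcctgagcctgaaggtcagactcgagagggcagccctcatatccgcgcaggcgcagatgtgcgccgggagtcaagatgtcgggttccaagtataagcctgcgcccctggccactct
Ndufc1 promoter, chr3:51408906-51409205, minus strand: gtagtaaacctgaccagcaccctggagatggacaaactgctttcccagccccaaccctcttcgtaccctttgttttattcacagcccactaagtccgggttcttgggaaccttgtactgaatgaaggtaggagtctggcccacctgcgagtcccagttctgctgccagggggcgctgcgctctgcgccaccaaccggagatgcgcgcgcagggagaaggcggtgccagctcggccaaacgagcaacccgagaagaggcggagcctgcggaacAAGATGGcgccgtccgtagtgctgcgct
Ndufb8 promoter, chr19:44555393-44555692, minus strand: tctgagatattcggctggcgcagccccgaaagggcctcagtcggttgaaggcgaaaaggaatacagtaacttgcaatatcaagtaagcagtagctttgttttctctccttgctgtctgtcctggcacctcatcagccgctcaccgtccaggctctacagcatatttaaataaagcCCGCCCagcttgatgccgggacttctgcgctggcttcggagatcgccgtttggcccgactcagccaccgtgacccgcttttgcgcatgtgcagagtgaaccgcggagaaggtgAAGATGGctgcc

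In these windows the YY1 letters stood 22 bases after the start in Ndufc1 and 38 bases after it in Ndufb8, and the Sp1 letters stood on the strand opposite to the gene, 110 bases before the start in Ndufb4 and 75 before it in Ndufb8, where the printed strand reads their reverse complement. The Ndufb1 window held no match to any of the 6. RefSeq windows were found for 41 of the 51 members, 34 of them tested subunits. The YY1 letters were in 7 of those 34 subunits (20.6%), beside 7.75% of 12838 tested genes with a window. The NRF1 core was in 2 (5.88%, beside 3.68%), CREB in 3 (8.82%, beside 3.16%) and the TATA box in 4 (11.8%, beside 9.89%). ETS letters were in 4 (11.8%, beside 17.1%) and Sp1 letters in 15 (44.1%, beside 62.9%). Over all 27025 genes with a window the shares were 7.28% for YY1, 2.07% for the NRF1 core, 2.03% for CREB, 15.7% for the TATA box, 9.93% for ETS and 38.2% for Sp1. Of the 7 assembly factors with a window, 6 held Sp1 letters, 2 the NRF1 core (Ndufaf4 and Ndufaf5), 2 ETS letters and 1 YY1 letters.

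Over all 47 tested genes, none passed in 10% EtOH against control at 10 weeks, as was the case for every one of the 18618 genes tested (0% called by edgeR, 0 by limma-voom). At an unadjusted p under 0.05, 11 of the 47 (23.4%) lay higher and none lower, beside 13.4% of all genes in either direction. Ndufs4 and Ndufs6, accessory subunits of the N module, Ndufab1 and Ndufb2 were among these 11, at log2 fold changes of 0.23, 0.29, 0.39 and 0.50. In 20 of the 47 every 10% EtOH library lay above every control library, beside 15.2% of all genes. DESeq2 called 73 genes (0.64%), of which 1, Ndufb1, was a member.

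When the same contrast was fitted on the 9 libraries of 10 weeks alone, 9 of 46 members passed, all higher in 10% EtOH, beside 3.92% of 17154 genes called higher. These were Ndufb1 (0.69 ± 0.09, adjusted p = 0.00989, edgeR), Ndufv2, Ndufb8, Ndufb4, Ndufa4, Ndufc1, Ndufc2 of the proximal arm, Ndufa13, a subunit of the junction of both arms, and Ndufa5 of the Q module. The log2 fold changes of the last 3 were 0.38, 0.34 and 0.35, and the adjusted p-values of the 9 reached 0.0478. The count rested on the control libraries: without control replicate 1 or replicate 3 it was 0, and without replicate 2 it was 1. Without any of the 6 EtOH libraries of that time it was 6 to 11. The count over all genes ran from 0 to 1569 over the same 9 settings.

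By module, the values in 10% EtOH at 10 weeks were uneven. The median log2 fold change was 0.18 in the N module (8 of 10 subunits above 0) and 0.18 in the Q module (5 of 5), against 0.07 in the proximal arm (5 of 10) and 0.14 in the distal arm (9 of 11), where the range ran from -0.10 to 0.85. Over the 39 subunits the median was 0.16, with 29 above 0, beside -0.01 over all genes. The 8 assembly factors had a median of 0.29 with 6 above 0, from -0.20 to 0.62, and none had an unadjusted p under 0.05. That median was 0.14 with length and GC trends removed, when the subunits had 0.17, and 0.19 without 10% EtOH replicate 2. Nuclear genes of complexes II to V, a list of 40, had a median of 0.09 with 26 above 0. Markers of principal cells were higher in the same libraries, with all 8 above 0 (0.03 to 0.85) and sums of 66585 to 73395 CPM in control against 88652 to 111620 in 10% EtOH. Smooth muscle markers were also above 0, 5 of 5, with sums of 146 to 308 CPM against 214 to 397. Macrophage markers lay above 0 in 9 of 9 (sums of 208 to 241 CPM against 263 to 409) and fibroblast markers in 4 of 4 (467 to 530 CPM against 652 to 749). Other lists went less that way: red blood cells 0 of 4, efferent duct ciliated cells 1 of 5 and striated muscle 1 of 3. Clear and narrow cells had 2 of 5 above 0, basal cells 2 of 4, endothelium 2 of 3, adipocytes 4 of 6 and germ cells 3 of 4. The part of these markers in the result was not tested.

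In 6% EtOH at 10 weeks the shift of the subunits was small but shared by most of them, and no gene passed. Of 39 subunits, 37 lay above 0, with a median log2 fold change of 0.17 beside -0.01 over all genes. The medians were 0.18 in the N module (9 of 10 above 0), 0.14 in the Q module (5 of 5), 0.16 in the proximal arm (10 of 10) and 0.17 in the distal arm (11 of 11). The summed level of 38 subunits, leaving out Ndufa4l2, was 2172, 2339 and 2401 CPM in control and 2569, 2617 and 2664 CPM in 6% EtOH, so the groups did not overlap. In 23 of the 47 members every 6% EtOH library lay above every control library, beside 9.67% of all genes. After removal of the trends of length and GC content, the subunits had a median of 0.11, with 35 of 39 above 0.

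The members with the smallest p in 6% EtOH were Ndufb1 (0.46 ± 0.15), Ndufs6 (0.31 ± 0.13), Ndufb6 of the distal arm (0.33 ± 0.14), Ndufb8 (0.49 ± 0.23), Ndufc1 (0.40 ± 0.20) and Ndufa13 (0.31 ± 0.15), all with an adjusted p of 1 in edgeR. Ndufs6 had 43.3, 42.1 and 39.1 CPM in control and 47.9, 51.0 and 55.3 in 6% EtOH. Ndufa13 had 99.3, 102 and 93.0 CPM in control and 118, 121 and 126 in 6% EtOH, and Ndufb6 16.3, 20.0 and 17.5 against 24.4, 20.9 and 22.5. In these 3 genes the groups did not overlap. None of the 47 passed (0% of all genes), and 4 had an unadjusted p under 0.05, all higher, beside 2.36% of all genes. DESeq2 and limma-voom called 0 genes as well, and a fit of only the 6 libraries compared called 1 member, Ndufb1. The share of all genes called in that fit is not given here, so this call is no result about Ndufb1 in particular. Complexes II to V had a median of 0.16 with 37 of 40 above 0, close to that of the subunits, and both EtOH groups were compared with the same 3 control libraries. Principal cell markers lay above 0 in 7 of 8 here, with sums of 66585 to 73395 CPM in control and 76340 to 92097 CPM in 6% EtOH. Macrophage markers did so in 9 of 9 (208 to 241 CPM against 259 to 284), smooth muscle markers in 5 of 5 (146 to 308 CPM against 206 to 307) and adipocyte markers in 6 of 6 (1.04 to 7.55 CPM against 6.18 to 24.4). Red blood cells had 4 of 4 above 0, germ cells 4 of 4, endothelium 3 of 3 and fibroblasts 3 of 4. Efferent duct ciliated cells had 1 of 5, clear and narrow cells 2 of 5, basal cells 1 of 4 and striated muscle 0 of 3. The part of these markers in the result was not tested.

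The median of the assembly factors in 6% EtOH was 0.12 with 6 of 8 above 0, and it was 0.03 without 6% EtOH replicate 3. Ndufaf3 lay lower in every 6% EtOH library (21.0, 20.8 and 21.2 CPM) than in every control library (23.5, 24.9 and 21.6 CPM), with a log2 fold change of -0.15, beside 9% of all genes lower without overlap. Ndufaf6 had the highest value, 0.49, on 1.44 to 4.27 CPM. None passed or had an unadjusted p under 0.05.

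**Figure D3:**
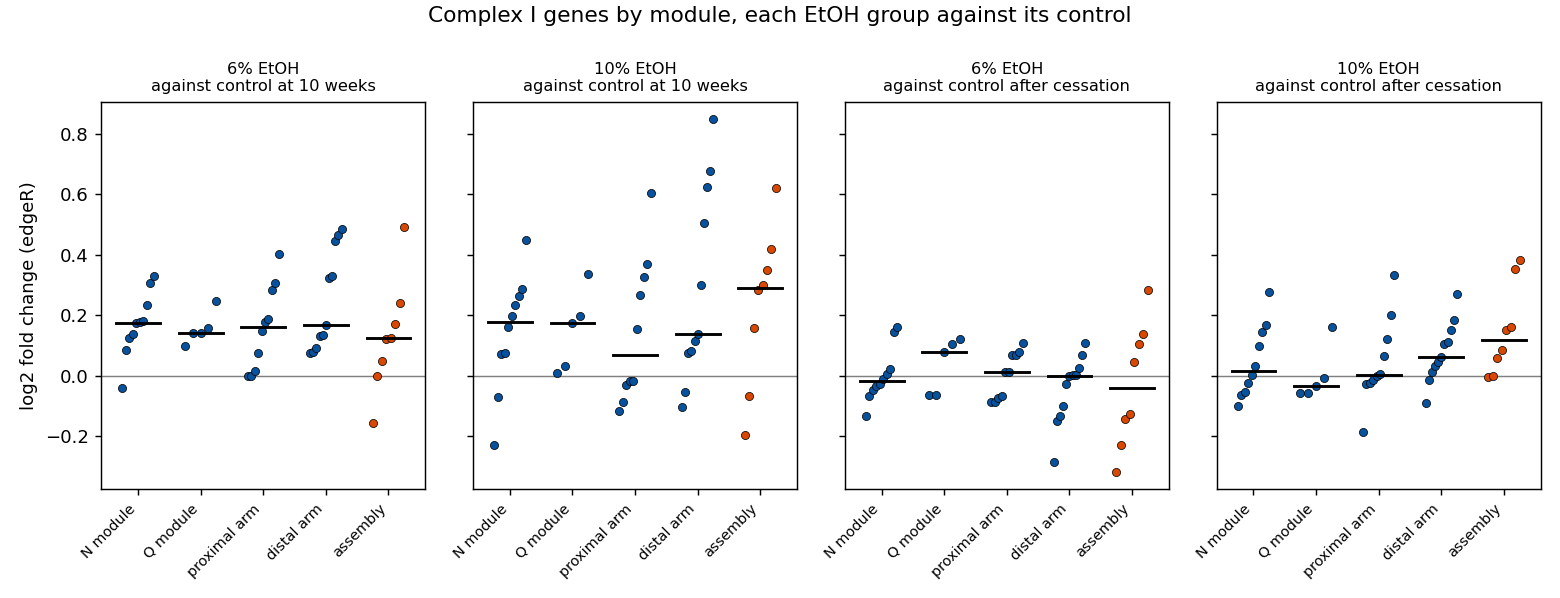
Log2 fold change (edgeR) of each tested gene in an EtOH group against its control, by module, in 4 comparisons; points are genes, black bars medians, blue subunits and orange assembly factors, with Ndufa4, Ndufa4l2 and Ndufab1 left out because they belong to none of these modules. The points lie mostly above 0 at 10 weeks (module medians 0.07 to 0.29) and around 0 after cessation (-0.04 to 0.12).

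Between the doses at 10 weeks no member passed (0% of all genes) and none had an unadjusted p under 0.05, beside 2.83% of all genes. DESeq2 and limma-voom called 0 genes. The smallest p-values were those of Ndufb4 (0.40 ± 0.23), Ndufb1 (0.21 ± 0.15), Ndufaf4 (0.30 ± 0.23), Ndufaf5 (0.25 ± 0.21), Ndufa4 (0.22 ± 0.19) and Ndufc1 (0.20 ± 0.20), all higher in 10% EtOH with adjusted p = 0.994 in edgeR. Without 10% EtOH replicate 3 the values of Ndufb4, Ndufa4 and Ndufc1 were 0.21, 0.12 and 0.06, and that of Ndufaf5 was 0.07 without 6% EtOH replicate 1 and 0.45 without its replicate 2. The value of Ndufaf4 turned to -0.02 with length and GC trends removed. Ndufa3, a small proximal arm subunit, lay lower in every 10% EtOH library (81.5, 86.0 and 64.7 CPM) than in every 6% EtOH library (86.6, 91.7 and 89.1 CPM), with a log2 fold change of -0.20, beside 6.39% of all genes lower without overlap.

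After cessation the subunits were centred near 0 in both EtOH groups in the main fit, though for 10% EtOH this depended on the processing. In 6% EtOH the median of the subunits was 0.00, with 20 of 39 above 0, and in 10% EtOH it was 0.03, with 24 of 39 above 0, both against the same 3 control libraries. The median in 6% EtOH was 0.12 without 6% EtOH replicate 1 and -0.11 without its replicate 2, and that in 10% EtOH ran from 0.01 to 0.10 over the libraries left out. With trends of length and GC content removed, the median in 10% EtOH was 0.10 with 34 of 39 above 0, beside 0.02 over all genes. In 6% EtOH it was then 0.00 with 20 of 39 above 0. No member passed in either comparison (0% of all genes in both), and none had an unadjusted p under 0.05, beside 1.62% of all genes in 6% EtOH and 6.66% in 10% EtOH. DESeq2 called 1 gene of all in 6% EtOH and 0 in 10% EtOH, none of them a member, and limma-voom called 0 in both. No member lay above control in all 6% EtOH libraries, beside 2% of all genes, and 1 of 47, Ndufaf5, did so in 10% EtOH, beside 2.49%. The module medians ran from -0.02 to 0.08 in 6% EtOH and from -0.03 to 0.06 in 10% EtOH.

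Ndufb1 had 65.1, 68.8 and 59.3 CPM in the cessation control, 38.7, 57.7 and 62.2 in 6% EtOH and 58.7, 82.2 and 67.8 in 10% EtOH. The low value of 6% EtOH belonged to replicate 1, the library low in principal cell markers, and the groups overlapped. The log2 fold change in 6% EtOH was -0.29 ± 0.15 (adjusted p = 1, edgeR), and it was -0.12 without that library. Next by p in 6% EtOH were Ndufaf2 (-0.23 ± 0.16), Ndufaf4 (-0.32 ± 0.23), Ndufa4l2 (-0.91 ± 0.70), Ndufs1 (-0.13 ± 0.11) and Ndufa12 (0.16 ± 0.15), of which only Ndufaf2 had groups that did not overlap, at 11.6, 12.1 and 10.2 CPM in control and 9.40, 9.99 and 9.53 CPM in 6% EtOH (beside 2.01% of all genes lower without overlap). Ndufa12 was at 0.02 without 6% EtOH replicate 2, Ndufa4l2 at -0.18 without control replicate 3 and -1.39 without control replicate 2, Ndufs1 at -0.07 without control replicate 1 and Ndufaf4 at -0.16 without control replicate 2.

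In 10% EtOH after cessation the smallest p-values belonged to Ndufa6, an N module subunit that binds the acyl carrier protein (0.28 ± 0.14), Ndufaf5 (0.38 ± 0.21), Ndufc2 (0.33 ± 0.21), Ndufab1 (0.26 ± 0.17), Ndufa4 (0.23 ± 0.19) and Ndufb4 (0.27 ± 0.23), with adjusted p of 0.759 to 0.827 in edgeR. Ndufaf5 had 8.49, 6.38 and 7.21 CPM in control and 9.03, 10.7 and 9.01 CPM in 10% EtOH. Ndufa4 had 102, 113 and 94.5 CPM in control against 83.7, 152 and 129, and Ndufb4 had 40.4, 43.4 and 31.4 CPM against 31.0, 56.9 and 51.1. In Ndufa4 and Ndufb4 replicate 1 of 10% EtOH lay below the lowest control library and replicates 2 and 3 above the highest. Without 10% EtOH replicate 2 the values of Ndufa6, Ndufc2, Ndufa4 and Ndufb4 were 0.15, 0.11, 0.04 and 0.09, and without its replicate 1 those of Ndufc2, Ndufa4 and Ndufb4 were 0.53, 0.44 and 0.49. Ndufab1 was at 0.15 without control replicate 3.

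Between the doses after cessation none of the 47 passed (0% of all genes), and 2 had an unadjusted p under 0.05, beside 7.85% of all genes. These were Ndufb1 (0.40 ± 0.15, higher in 10% EtOH) and Ndufaf5 (0.52 ± 0.22), with adjusted p = 0.634 in edgeR for both. Without 6% EtOH replicate 1 the value of Ndufb1 was 0.23. Ndufaf4 (0.47 ± 0.23), Ndufaf2 (0.31 ± 0.16), Ndufc2 (0.40 ± 0.21) and Ndufb4 (0.40 ± 0.23) came next. Without 10% EtOH replicate 2, Ndufaf4, Ndufc2 and Ndufb4 were at 0.15, 0.18 and 0.23, and without 6% EtOH replicate 3, Ndufc2 and Ndufb4 were at 0.61 and 0.65. Every 10% EtOH library lay above every 6% EtOH library in Ndufaf2 and Ndufaf5, as in 589 of all 18618 genes. DESeq2 called 1 gene of all and no member, and limma-voom called 0 genes.

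The change of the EtOH effect from 10 weeks to cessation was tested as an interaction. The median interaction of the subunits was -0.16 for 6% EtOH, with 6 of 39 above 0, and -0.15 for 10% EtOH, with 8 of 39 above 0. Over the libraries left out these medians ran from -0.28 to -0.12 and from -0.19 to -0.10, the first at -0.28 without 6% EtOH cessation replicate 2. With trends of length and GC content removed, the median was -0.12 for 6% EtOH, with 7 of 39 above 0. For 10% EtOH it then shrank to -0.05, with 13 of 39 above 0. No member passed for 6% EtOH or for 10% EtOH (0% of all genes for both). At an unadjusted p under 0.05 there were 2 members for 6% EtOH, beside 3.01% of all genes, and 1 for 10% EtOH, beside 7.44%. Ndufb1 had the smallest p in both, with interactions of -0.75 ± 0.22 (adjusted p = 0.9997, edgeR) and -0.57 ± 0.22 (adjusted p = 0.645, edgeR) on the log2 scale. Ndufb6 was the other member for 6% EtOH, at -0.48 ± 0.20. The next by p for 6% EtOH were Ndufaf2 (-0.47), Ndufb8 (-0.59), Ndufb4 (-0.58) and Ndufs1 (-0.27), and for 10% EtOH Ndufb4 (-0.58), Ndufa5 (-0.37), Ndufa13 (-0.32), Ndufs1 (-0.23) and Ndufc1 (-0.41). Leaving out a library took Ndufb4 to -0.36 (10% EtOH cessation replicate 1), Ndufa5 to -0.18 (Control cessation replicate 1), Ndufa13 and Ndufc1 to -0.20 and -0.23 (Control cessation replicate 2) and Ndufs1 to -0.14 (10% EtOH 10 weeks replicate 3), all for 10% EtOH. DESeq2 called 0 genes for 6% EtOH and 2 genes, no member among them, for 10% EtOH, and limma-voom called 0 for both. Both doses share the control libraries at each time.

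Among the controls alone, Ndufb1 had a higher mean after cessation than at 10 weeks, at 64.4 ± 4.797 against 43.4 ± 3.99 CPM (SD, n = 3), a log2 fold change of 0.57 ± 0.15 (adjusted p = 0.101, edgeR), and so was Ndufa5, at 39.5, 39.9 and 41.1 CPM at 10 weeks and 68.4, 49.1 and 46.6 CPM after cessation (0.45 ± 0.17, adjusted p = 0.172). Ndufaf3 was lower, at 23.5, 24.9 and 21.6 CPM at 10 weeks and 16.98, 18.6 and 16.1 CPM after cessation (-0.44 ± 0.14, adjusted p = 0.129), as were Ndufa12 of the N module (-0.34 ± 0.15) and Ndufa9, which binds a nicotinamide nucleotide at the foot of the membrane arm (-0.34 ± 0.16). In these 5 genes the groups did not overlap, as in 14 of the 47 members and 25.1% of all genes. Ndufa5 was at 0.25 without Control cessation replicate 1. Ndufa4l2 had a value of 1.69 ± 0.72 on 4 to 34 counts in a library, with overlapping groups, and 0.97 without Control cessation replicate 3. None of these passed, while 22 of all genes did (0.118%), and 6 of the 47 had an unadjusted p under 0.05, beside 20.3% of all genes. DESeq2 called 2 members, Ndufb1 and Ndufaf3, among 993 genes (6.04%), and limma-voom called 0 genes. Without Control cessation replicate 2 edgeR called 3 members (6.38%), beside 14% of all genes.

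Over all treatments, 7 of 47 members passed between cessation and 10 weeks, or 14.9%, beside 17.9% of all genes. Of the 7, 6 were lower after cessation. Ndufaf3 had 19.1 to 24.9 CPM (median 21.2) in the 9 libraries of 10 weeks and 14.2 to 20.8 CPM (median 16.98) after cessation, and fell by 0.31 on the log2 scale (SE 0.08, adjusted p = 0.0236, edgeR). Ndufa9 had 43.0 to 58.4 CPM (median 51.1) against 33.2 to 52.1 CPM (median 38.9) and fell by 0.32. In both genes the ranges of the times overlapped. Ndufs3, a core subunit of the Q module, fell by 0.28, Ndufs5 of the proximal arm by 0.27, and Ndufb11 of the distal arm and Ndufa13 by 0.26 each, with adjusted p of 0.0336 to 0.0483 in edgeR.

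Ndufa4l2 was the gene that rose, by 1.45 ± 0.43 on the log2 scale (adjusted p = 0.0326, edgeR), from 0.116 to 0.565 CPM at 10 weeks to 0.245 to 2.25 CPM after cessation, a gene with 2 to 34 counts a library. At an unadjusted p under 0.05 there were 19 members, beside 36.7% of all genes, and 17 of the 19 lay lower. The median of the subunits was -0.12 with 10 of 39 above 0, beside 0.05 over all genes, and that of complexes II to V was -0.13 with 10 of 40 above 0. Smooth muscle markers rose over the same contrast, with 5 of 5 called and sums of 146 to 397 CPM at 10 weeks and 207 to 1192 CPM after cessation. Principal cell markers lay above 0 in 0 of 8 (median -0.50, from -0.62 to -0.22), and 2 of the 8 were called lower. Endothelial markers were called higher in 3 of 3, striated muscle in 2 of 3, red blood cells in 2 of 4, efferent duct ciliated cells in 2 of 5 and macrophages in 2 of 9, and 1 marker each of clear, basal and germ cells was, while of 4 fibroblast markers 2 were called higher and 1 lower. Their part in the result was not tested.

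The count of 7 depended on which libraries were used. It was 0 without Control cessation replicate 3 and 6% EtOH cessation replicate 1 together. Leaving out a library at a time, it was 0 without Control 10 weeks replicate 2, 10% EtOH 10 weeks replicate 1, Control cessation replicate 3 or 10% EtOH cessation replicate 3. It was 1 without 6% EtOH 10 weeks replicate 3, 10% EtOH 10 weeks replicate 2, 6% EtOH cessation replicate 1 or 10% EtOH cessation replicate 2, and 2 without 6% EtOH 10 weeks replicate 2 or Control cessation replicate 1. It was 3 without Control 10 weeks replicate 1 and 4 without Control 10 weeks replicate 3. It was 11 without 10% EtOH 10 weeks replicate 3, 15 without Control cessation replicate 2, 17 without 10% EtOH cessation replicate 1 and 18 without 6% EtOH cessation replicate 2. Over the same settings of 1 library left out, the count over all genes ran from 850 to 5811. It was 850 without 10% EtOH cessation replicate 3, where 0 members passed, and 5811 without Control cessation replicate 2, where 15 did. For the other settings it is not given here, so their counts of members have no share of all genes beside them. DESeq2 called 14 members (29.8%, beside 25.3% of all genes) and limma-voom 6 (12.8%, beside 13.3%).

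From library to library the median of the subunits moved with that of the other nuclear respiratory genes, though not every subunit did. The median centred log2 level of 38 subunits correlated with that of complexes II to V at r = 0.92 over the 18 libraries, given as a description since the libraries share groups, depth and scaling. With the Ndufaf genes r was 0.64, with principal cell markers 0.82 and with smooth muscle markers -0.60. Single subunits of the 38 had an r with the median of complexes II to V from -0.23 in Ndufa5 to 0.95 in Ndufb11. It was 0.05 in Ndufb4, 0.10 in Ndufb8, 0.16 in Ndufa4, 0.26 in Ndufc1 and Ndufb1 and 0.43 in Ndufv2. The median of the subunits was lowest in 6% EtOH cessation replicate 1 (-0.34) and Control cessation replicate 3 (-0.21), the libraries with the lowest principal cell markers. It was highest in 10% EtOH 10 weeks replicate 2 (0.19). The library with the highest principal cell markers, 10% EtOH 10 weeks replicate 3 (0.95), had a subunit median of only 0.03. The SD of this median between replicates was 0.12.

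The 7 mitochondrially encoded subunits did not follow that order. Their median in a library ran from -0.92 in Control 10 weeks replicate 2 to 1.39 in 10% EtOH cessation replicate 2, and correlated with the median of the nuclear subunits at r = -0.30. In 10% EtOH at 10 weeks all 7 lay above 0 (median 1.05, 0.78 to 1.62), with 2 at an unadjusted p under 0.05 and none past the threshold. Replicate 3 was the highest there, as with mt-Nd1 at 2277, 2010 and 4202 CPM in 10% EtOH and 1235, 1176 and 1632 CPM in control. Levels of mt-Nd3 (0.411 to 3.31 CPM in the 18 libraries) and mt-Nd4l (0.411 to 2.24 CPM) were low and rested on few counts. Over all treatments 5 of 7 (mt-Nd1, mt-Nd3, mt-Nd4, mt-Nd5 and mt-Nd6) were called higher after cessation in edgeR, at 0.79 to 1.03, over the contrast in which 6 nuclear members were called lower. Reads of mitochondrial genes can match nuclear copies, so their counts are uncertain.

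**Figure D4:**
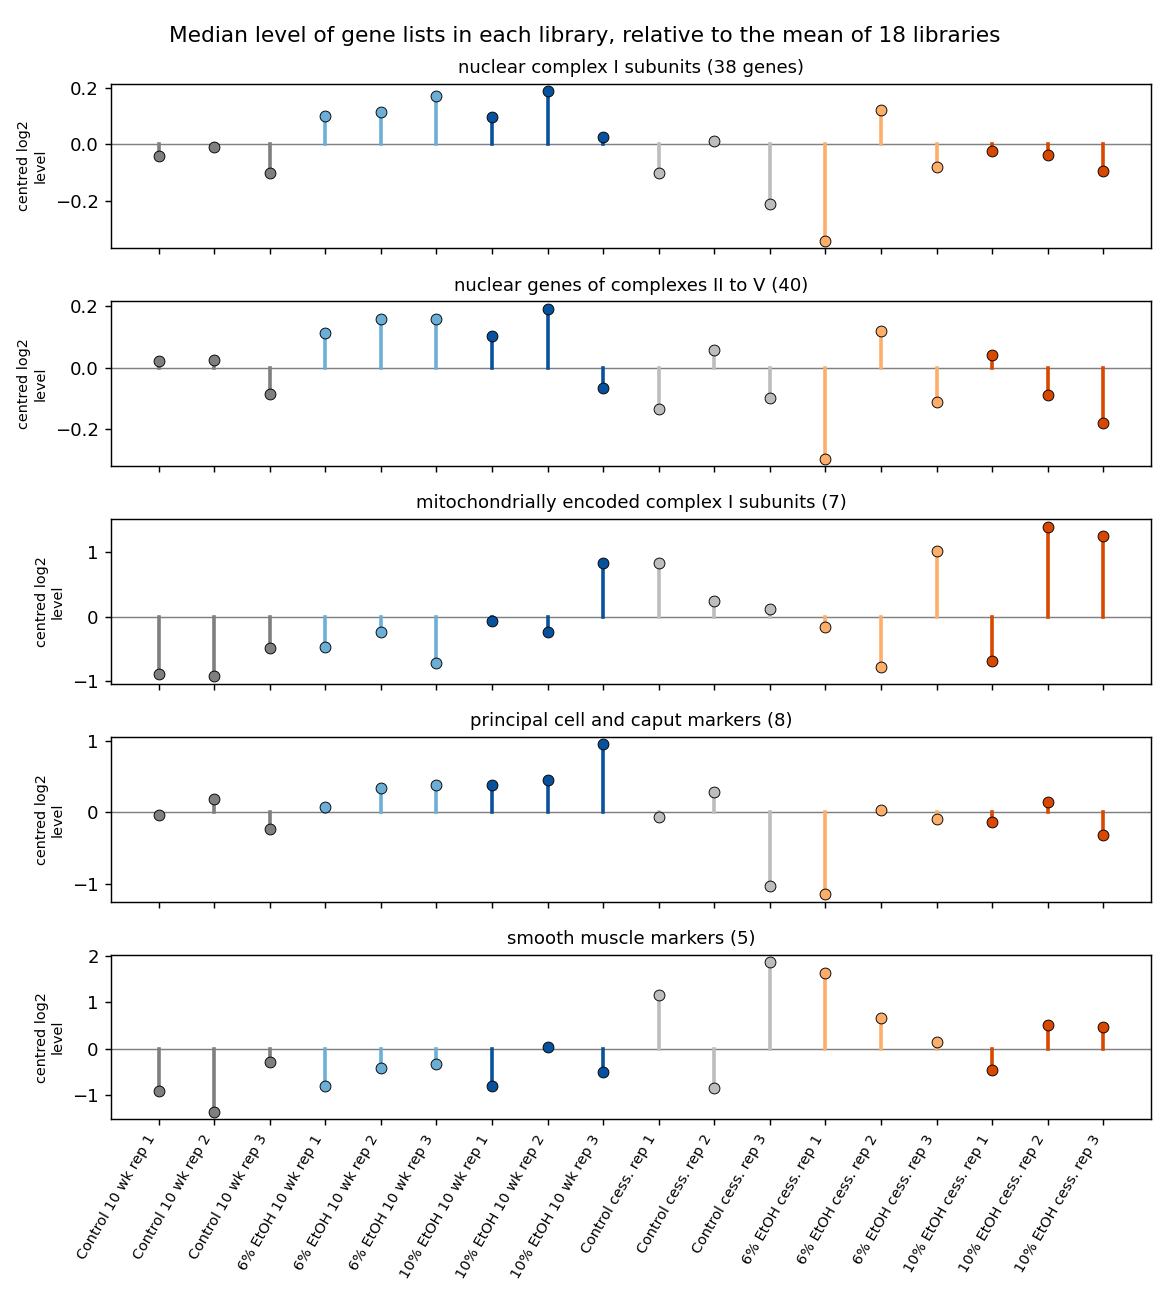
Median centred log2 level (relative to the mean of 18 libraries) of 5 gene lists in each library, coloured by group; each panel has its own vertical scale. The nuclear subunits and complexes II to V share their lowest library, 6% EtOH cessation replicate 1 (-0.34 and -0.30), while the mitochondrially encoded subunits peak in 10% EtOH cessation replicate 2 (1.39).

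Taken gene by gene, the nuclear members fell on both sides of the mitochondrially encoded list. Over 18 libraries 12 of the 47 had an r above 0.5 with the median of that list and 14 an r below -0.5, beside 15.2% and 16.5% of the other tested genes. With group means removed the counts were 10 and 16, and 8 and 13 genes stayed on their side in both. Ndufb2 (0.78), Ndufa5 (0.77), Ndufb4 (0.74), Ndufb8 (0.71) and Ndufa4 (0.67) had the highest r, and Ndufv3 (-0.89), Ndufa3 (-0.85), Ndufa12 (-0.82), Ndufa10 (-0.80) and Ndufa11 (-0.78) the lowest. These genes were singled out after their values were seen.

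The contrast was plain between replicates of a group. In 10% EtOH cessation replicates 1, 2 and 3, Ndufb4 had 31.0, 56.9 and 51.1 CPM while Ndufv3, an N module subunit, had 102, 56.7 and 64.3 CPM. Ndufb8 had 46.5, 88.1 and 85.7 CPM there and Ndufa3 89.3, 53.2 and 59.3 CPM. The library high in Ndufv3 and Ndufa3 was thus the low one in Ndufb4 and Ndufb8, within the same treatment and time. These genes were picked from the ends of the order by r over the same libraries, so this shows that order again and is no separate support. In 10% EtOH 10 weeks replicate 3, Ndufb4 was at its highest level of the 18 libraries, 61.8 CPM, and Ndufv3 at 61.9 CPM against 91.8 and 85.3 CPM in the other two. The median transcript length was 868 bases in the 12 genes and 884.5 in the 14 (given unrounded), and the median GC content 50.1% and 54.0%. Across all genes the log2 fold change of 10% EtOH at 10 weeks had a Spearman correlation of -0.38 with GC content and across the 47 members of -0.30, as a description across genes, which are not independent replicates.

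**Figure D5:**
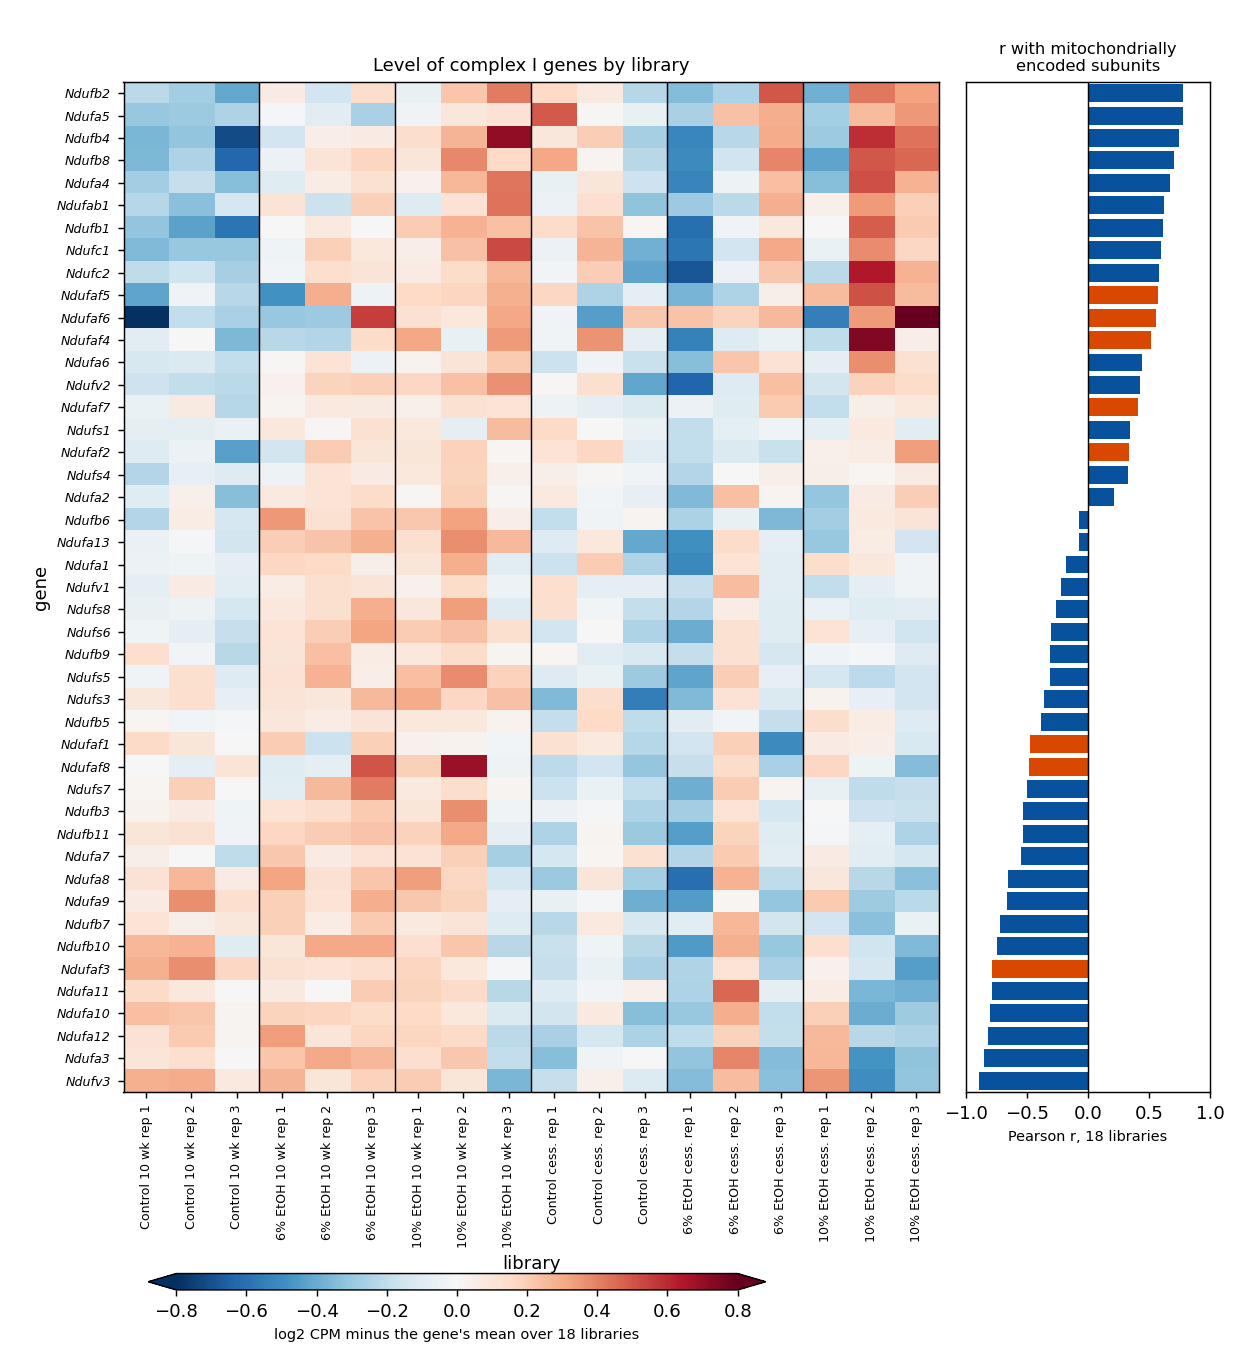
Left, log2 CPM of the tested members reported by name (rows, without Ndufa4l2) in the 18 libraries (columns, groups parted by lines), centred on each gene's mean, from blue (low) to red (high). Right, each gene's Pearson r over 18 libraries with the median of the mitochondrially encoded subunits (blue subunits, orange assembly factors), from 0.78 in Ndufb2 to -0.89 in Ndufv3; upper and lower rows run in opposite colours within 10% EtOH cessation.

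Of 12 further assembly factors under other names, none was called by edgeR in any of the 10 comparisons. Their median log2 fold change was 0.10 in 6% EtOH and 0.08 in 10% EtOH at 10 weeks, and 0.02 and 0.14 after cessation. Lyrm2 (0.37) at 10 weeks and Timmdc1 (0.34) after cessation had an unadjusted p under 0.05 in 10% EtOH. Of 16 regulators of respiratory chain genes none was called in an EtOH group against its control. Their medians there ran from -0.08 to 0.02. Tfam, which packages and transcribes mitochondrial DNA, had a value of 0.36 ± 0.16 in 10% EtOH at 10 weeks (adjusted p = 0.331, edgeR), Nrf1 -0.01 ± 0.15 and Ppargc1a, a coactivator of mitochondrial genes, -0.27 ± 0.34. Pprc1, a relative of Ppargc1a, was at -0.34 there, the other regulator with an unadjusted p under 0.05. In 10% EtOH after cessation 3 regulators had such a p, all lower: Myc (-1.56), Gabpb1 (-0.47) and Pprc1 (-0.39). Over all treatments Myc was called higher after cessation (2.02 ± 0.35, adjusted p = 0.0061, edgeR), and no other regulator was. Levels of Myc ran from 1.65 to 4.52 CPM at 10 weeks and from 3.62 to 38.7 CPM after cessation, so the times overlapped. After cessation it had 13.4, 3.62 and 38.7 CPM in control and 3.65, 7.21 and 8.08 CPM in 10% EtOH. These groups overlapped, and the highest library was Control cessation replicate 3, high in smooth muscle markers.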

How the data were processed

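The deposited values were whole-number counts per gene, in 1 table for each of 18 libraries, with 53819 shared entries. The build GRCm39 and the tools featureCounts, STAR and Trimmomatic are named per the submitters' processing notes. No source used here gives their versions, the strand setting or how multiply matched reads were counted. Between 71.3% and 75.5% of counts from 1 to 20 were even in each library. Genes were filtered with filterByExpr (minimum count 10, minimum total 15), which left 18618, and scaled by TMM (factors 0.914 to 1.20). edgeR 4.0.16 (R 4.3.3) fitted the robust quasi-likelihood test to all 18 libraries with 1 term a group, giving 10 contrasts, two-sided, with Benjamini-Hochberg adjustment over all genes and a threshold of 0.05. Standard errors are those implied by the test. The common biological coefficient of variation was 25.4%. Pairs of replicates had a chi-square per degree of freedom of 5.35 or more, so no pair differed by counting error alone. This does not show that they came from separate animals. Levels are CPM, and centred levels used log2 CPM with a prior count of 2. Lengths and GC content came from GENCODE transcripts on GRCm38, matched by symbol for 98.5% of tested genes, and the tables give no coordinates. Promoters came from RefSeq tables. Alternatives were limma-voom (limma 3.58.1), DESeq2 1.42.0, RLE size factors, other count filters, fits of fewer libraries, removal of length and GC trends, leaving out each library, and, chosen after seeing the data, halved counts, leaving out 2 libraries high in muscle markers, and leaving out each library within the fit of the 9 libraries of 10 weeks. The script was tested on simulated data. Named genes were, per comparison, those past the threshold and the 6 of smallest p, with the extremes per kilobase, the core subunits, Ndufa4, Ndufa4l2, Ndufab1 and the Ndufb4 copies. Genes named for their correlation with mitochondrially encoded subunits were chosen after their values were seen. Members and lists were chosen with earlier results of these data known. A member of the set is not reported by name here, though it stays in the counts and medians. Floors cover counting error only.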

Additional observations from a re-analysis of the deposited data

Results flagged for a closer look

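The entries ending in -ps, which lie outside the rule, held counts. Ndufa12-ps reached 20 counts in a library, against at most 12 in a control library, and Ndufab1-ps reached 6, against at most 4. These were picked out because the highest count in any EtOH library stood above the highest in the controls, a difference of a few counts that was not tested. Ndufs5-ps reached 31 counts, in a control library.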

How the results depend on the processing

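No paired analysis was possible because the replicate numbers only name libraries, in accession order, and tie none to another. Of 282 counts of members past the threshold recomputed under other settings, 253 stayed within 1.5 times the main value, most of them at 0. In 10% EtOH against control at 10 weeks the count of 0 became 4 without the low-count filter and 1 with DESeq2 (beside 0.64% of all genes). In the fit of the 9 libraries of that time it became 9, all higher, beside 3.92% of all genes called higher. In 6% EtOH at 10 weeks it became 1 in the fit of the 6 libraries compared. In the controls between times the count of 0 became 1 without the filter and 2 with DESeq2 (beside 6.04% of all genes). When a library was left out it was 0 to 3, with 0 to 2724 of all genes called. Over all treatments the count of 7 became 14 with DESeq2 (beside 25.3% of all genes) and 11 with length and GC trends removed. It was 0 without the 2 libraries high in muscle markers. When a library was left out it was 0 to 18, with 850 to 5811 of all genes called. Shares of all genes are not given here for the fits without the filter, of 6 libraries, with trends removed or without those 2 libraries. Counts from those fits are therefore no result about the members in particular. Single log2 fold changes were recomputed only for 61 main values, of members named in a comparison for their small p or for passing. That choice can make changes of sign rarer. Of 1656 such values recomputed, 1 changed sign: Ndufaf4 in 10% against 6% EtOH at 10 weeks was -0.0178 with length and GC trends removed. Of the others, 1550 kept their side of the threshold, 88 no longer passed and 17 newly passed. Of 546 medians over subunits or assembly factors, 11 moved by more than the SD between replicates. The cause was not tested. Ndufa4l2 and the untested copies are limited by depth.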
